A study of Mus musculus with 111 samples.

Results

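The 74 entries examined here are the named C/D box small nucleolar RNAs (snoRNAs) of a mouse small RNA count table, chosen as every entry whose name starts with Snord. They are 74 of the 1268 entries of the table and 74 of the 1042 features left after repeated names of the same reads were removed. The 74 entries held 463406 reads, 2.30% of the reads of the kept features. All 74 matched a gene of that name in the GENCODE M21 annotation of GRCm38. The label was checked against sequence: box D (CTGA within the last 25 nt) was present in 73 of 74 members (98.6%) and box C (ATGATGA or GTGATGA starting within the first 25 nt) in 47 (63.5%). Among the 37 H/ACA-type Snora entries, box C was found in 0 and CTGA in the last 25 nt in 4 (10.8%).

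Small RNA came from mice kept for 6 months on 1 of 4 diets. The 6 tissues were liver, heart, testis, the caput and the cauda of the epididymis, and cauda sperm, with 4 or 5 libraries for each of the 24 groups and 111 libraries in all. The control diet contained 18% protein and the low-protein diet 10%, with sucrose in its place. The high-fat diet took 60% of its calories from fat and its own high-fat control diet 7.2%. All input RNA was treated with polynucleotide kinase, and libraries were made by OTTR-seq, whose reverse transcriptase adds both adaptors by jumping between templates. Strain, sex and age were not among the labels. The labels do not state that each library of a group is a separate animal, so p-values measure the spread between libraries, which may be technical. The table holds no protein-coding marker genes, and the tissue labels were not checked on such markers.

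C/D box snoRNAs are short nucleolar RNAs that carry box C near the 5′ end and box D near the 3′ end. The stretch just upstream of box D, or of an internal copy called D′, pairs with ribosomal RNA and directs the methyltransferase fibrillarin to methylate the 2′-hydroxyl of 1 nucleotide. A few members act instead, or also, in the cleavage and folding of the ribosomal RNA precursor (U14, U22 and U8, the last encoded by Snord118) or in its acetylation (U13, encoded by Snord13). Most vertebrate snoRNAs are cut out of introns of genes for ribosomal and translation proteins or of noncoding host genes such as Gas5. Of the 74 members, 71 lay within an annotated host gene on the same strand, 53 of them with a protein-coding host. Of these 71, 65 fell in introns of the host and 6 overlapped an exon of it in the basic annotation (Snord45c, Snord99, Snord88a, Snord1a, Snord60 and Snord22). Snord13, Snord118 and Snord104 had no host. Annotated lengths ran from 64 to 238 nt with a median of 80 nt, and 11 members were longer than 100 nt.

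The sequences below are those on which the results turn. They are read from GENCODE M21 transcripts (GRCm38), 5′ to 3′ on the gene's strand, with capitals marking box D and, where its exact form was found, box C. The 2 members with the most reads were Snord80, in an intron of Gas5 at chr1:161037601-161037681 (plus strand), and Snord104 at chr11:106500993-106501062 (plus strand). The annotation holds 2 genes named Snord80, and the place and sequence given are those of the first.
Snord80: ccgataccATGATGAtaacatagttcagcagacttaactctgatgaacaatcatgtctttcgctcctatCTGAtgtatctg
Snord104: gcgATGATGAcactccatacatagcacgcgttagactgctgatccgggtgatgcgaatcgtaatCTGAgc
Near-identical pairs follow, because reads of such pairs may be split between the 2 entries in a way the sources used here do not state. Snord14c (chr9:40803583-40803668) and Snord14d (chr9:40803995-40804080), U14 copies in introns of the plus-strand gene Hspa8, differ at 2 positions counted from the 5′ end of Snord14c, G47A and A49G. Snord50a (chr9:88521529-88521600) and Snord50b (chr9:88521797-88521868), in introns of the minus-strand host Snhg5, differ at 1 position, C50A.
Snord14c: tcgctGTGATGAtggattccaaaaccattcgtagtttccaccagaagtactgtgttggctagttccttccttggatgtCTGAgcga
Snord14d: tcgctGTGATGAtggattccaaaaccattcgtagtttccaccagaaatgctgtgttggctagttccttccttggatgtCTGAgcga
Snord50a: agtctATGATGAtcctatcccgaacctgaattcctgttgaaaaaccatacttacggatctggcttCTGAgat
Snord50b: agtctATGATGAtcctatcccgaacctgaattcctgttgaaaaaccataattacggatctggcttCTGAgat
Snord1b and Snord1c differ by an edit distance of 2, and Snord88a and Snord88c by 5. Values of these 4 pairs are therefore uncertain between partners.

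The long members below stood out in the cauda epididymis and in sperm. Snord17 (chr2:144265979-144266216, minus strand) lies in an intron of Snx5 and has 238 nt, Snord15a (chr7:99482785-99482932, minus strand) lies in an intron of Rps3, and Snord22 (chr19:8725866-8725991, plus strand) in Snhg1.
Snord17: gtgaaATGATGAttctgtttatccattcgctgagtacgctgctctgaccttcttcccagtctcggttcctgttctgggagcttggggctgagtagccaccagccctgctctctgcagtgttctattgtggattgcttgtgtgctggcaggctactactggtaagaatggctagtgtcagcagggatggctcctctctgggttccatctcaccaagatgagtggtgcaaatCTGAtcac
Snord15a: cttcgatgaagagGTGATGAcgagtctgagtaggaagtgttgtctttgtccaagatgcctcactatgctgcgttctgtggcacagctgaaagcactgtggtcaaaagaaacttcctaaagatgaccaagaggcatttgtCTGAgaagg
Snord22: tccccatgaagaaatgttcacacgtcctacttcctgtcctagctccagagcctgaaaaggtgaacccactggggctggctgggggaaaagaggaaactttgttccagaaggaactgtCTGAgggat
Snord35a (chr7:45126346-45126435, minus strand, in Rpl13a) and Snord93 (chr5:23852210-23852280, plus strand) were highest in testis. Snord57 (chr2:130278016-130278087, plus strand, in Nop56) and Snord69 (chr14:31014287-31014366, minus strand, in Gnl3) are shown for the low-protein comparisons.
Snord35a: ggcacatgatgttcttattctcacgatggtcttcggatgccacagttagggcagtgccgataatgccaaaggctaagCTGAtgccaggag
Snord93: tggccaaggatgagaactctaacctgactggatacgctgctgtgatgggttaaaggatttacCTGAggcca
Snord57: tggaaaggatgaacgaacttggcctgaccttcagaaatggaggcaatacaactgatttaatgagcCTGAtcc
Snord69: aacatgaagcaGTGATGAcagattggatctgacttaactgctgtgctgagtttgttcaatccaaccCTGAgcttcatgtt
For 18S rRNA exact complements could be looked for, because the annotation holds an 18S copy, Gm42418. An exact complement of at least 10 nt to it was present in 8 of the 24 members listed as 18S guides and in 3 of the other 50 (Snord13, Snord71 and Snord85). The longest complement of a member had a median of 8 nt in both sets. The longest of all, 15 nt, was in Snord13, which is not on the guide list. A match is a description of the letters and not a mapped site. In the 4 below the capitals mark the complement instead of the boxes. It ends directly before a CTGA in Snord61 (chrX:57391449-57391519, minus strand) and Snord59a (chr10:128084143-128084216, plus strand) and 1 nt before one in Snord110 (chr2:130275506-130275573, plus strand), whereas in Snord65 (chr11:62604515-62604586, plus strand) the 14-nt complement lies 30 nt before the next CTGA.
Snord61: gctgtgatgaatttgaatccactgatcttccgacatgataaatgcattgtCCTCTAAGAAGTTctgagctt
Snord59a: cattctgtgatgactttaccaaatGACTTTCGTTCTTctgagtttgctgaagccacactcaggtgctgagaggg
Snord110: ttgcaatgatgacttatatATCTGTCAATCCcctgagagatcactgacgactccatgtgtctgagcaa
Snord65: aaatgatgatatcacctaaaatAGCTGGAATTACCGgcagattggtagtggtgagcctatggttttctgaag

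Libraries held 827 to 1467880 kept reads with a median of 59904, and 3 were under 5000. Libraries of one group differed by more than counting noise in all 204 pairs, and the lowest chi-square was 1.62 for each degree of freedom. The share of reads in the Snord entries differed widely between tissues. In testis it was 1.77% in the lowest library, 13.4% in the median and 27.02% in the highest of 19. By diet the testis medians were 2.81% on control, 10.4% on low protein, 16.2% on the high-fat control and 16.5% on high fat. In caput the range was 2.08% to 10.5% with a median of 5.79%, in liver 1.01% to 10.6% with a median of 3.39%, and in cauda 0.918% to 4.34% with a median of 2.74%. Sperm libraries held 0.350% to 4.98% with a median of 1.505%. Heart libraries held 0.215% to 1.55% with a median of 0.558%. The share depends on what else was sequenced: mitochondrial tRNA took a median of 76.4% of heart reads and 13.6% of testis reads, and its part in the differences was not tested. In bulk RNA, fewer cells of a type and less RNA per cell cannot be told apart.

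**Figure D1:**
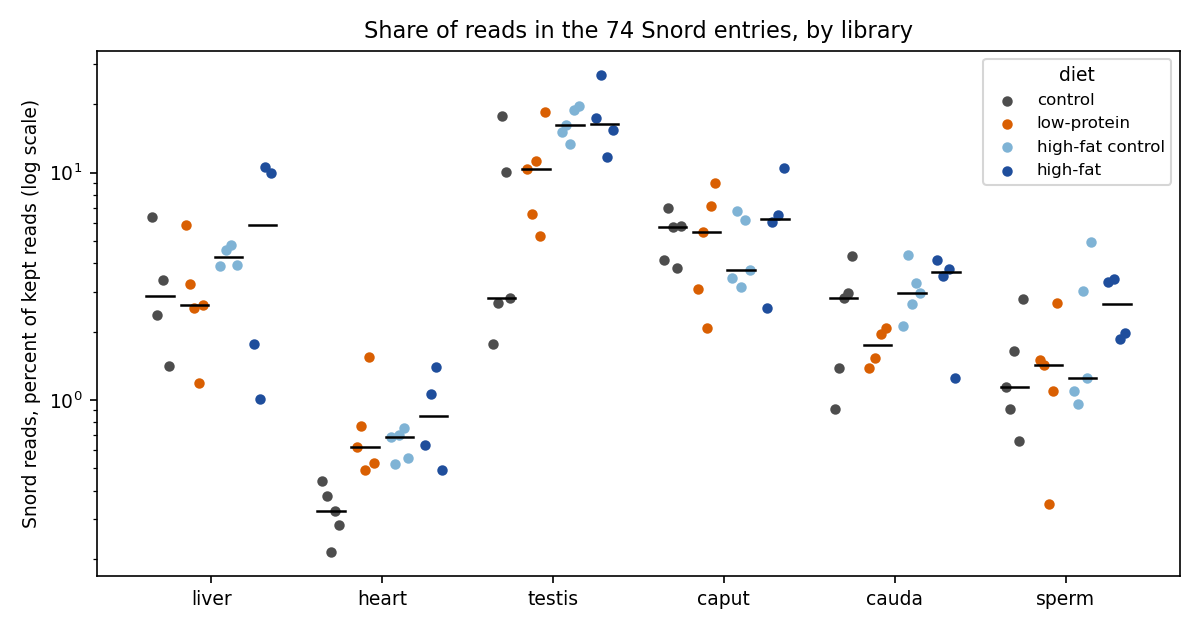
Percent of kept reads in the 74 Snord entries (log axis) for every library, by tissue and diet; points are libraries and lines are group medians. Testis libraries reach 27.02% while heart libraries stay between 0.215% and 1.55%.

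Snord80, a guide of 28S methylation, led the family in every tissue. It held 112624 reads, 24.3% of all Snord reads. Its share of the Snord reads of a library had a median of 32.6% in liver, 31.5% in caput, 28.7% in cauda, 26.6% in heart, 23.9% in sperm and 18.96% in testis. Next came Snord104 with 28043 reads, Snord32a with 21389, Snord68 with 20002, Snord100 with 17397, Snord12 with 17150, Snord50b with 16370, Snord50a with 16027, Snord87 with 15240 and Snord49b with 14700. Of these 10, Snord100 guides 18S methylation, Snord32a is assigned to both 18S and 28S, and the others to 28S. The order of abundance was not the same in each tissue. Snord100 made up a median of 10.2% of the Snord reads of sperm libraries and between 1.73% and 4.87% in the other 5 tissues. Snord104 made up 8.35% in liver, 8.34% in heart and 1.16% in sperm. Reads per entry were not divided by length, so this order is one of reads and not of molecules. At the other end, 9 members had too few reads to test between tissues, of which Snord42b, with 282 reads, had the most, and Snord98 had 22 reads. Snord53, also untested, had no read in any cauda library and 109 reads in testis. Snord98 had no read in any sperm library and 15 reads in testis.

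The tissues were compared with edgeR's quasi-likelihood test over 460 features, of which 65 were Snord members, with diet as a term. A member was called at a Benjamini-Hochberg adjusted p under 0.05 and a log2 fold change of at least 1 in size. The number of members called in each direction differed between scalings in several tissues, and the cause was not tested. Each tissue result is therefore given with the same test after setting the library size to its summed Snord reads. That second scaling was chosen after seeing the data, and it asks whether a member changed relative to the family's summed reads. Snord80 held 24.3% of those, so a shift in its share moves the values of the other members. The scaling fixes the sum by construction, so its split says nothing of the family as a whole.

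In testis 40 of 65 members were higher and 2 lower than the mean of the other 5 tissues, where 62.2% of all features were called and 47.6% were called higher. Snord93, an 18S guide, had 34.9 RPM (reads per 1000000 kept reads) in the lowest testis library, 231 in the median and 365 in the highest. Its medians elsewhere were 4.18 RPM in cauda, 4.08 in heart, 3.66 in liver and 0 in caput and sperm. The highest library read 123 RPM in caput, 51.7 in cauda, 37.2 in heart and 30.5 in liver, so the ranges overlapped at the low end of testis for caput, cauda and heart, and not for liver. The log2 fold change of Snord93 was 3.48 ± 0.275 (standard error, as below; edgeR adjusted p 9.12e-23). Snord35a, a 28S guide from Rpl13a, had a median of 1573 RPM in testis (157 to 2866) and of 26.1 to 149 in liver, heart, caput and cauda, and rose by 3.13 ± 0.22. Snord82, an 18S guide in the nucleolin gene Ncl, rose by 2.98 ± 0.23 from the same comparison. Against the summed Snord reads 15 members were higher and 9 lower in testis, and these 3 stayed among the higher ones, with log2 fold changes of 2.60 for Snord93, 2.05 for Snord35a and 1.74 for Snord82. The 2 members that were lower in testis were both long. Snord17 fell by 2.33 ± 0.37 and Snord22 by 1.10 ± 0.39 on the log2 scale.

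In heart 8 members were called higher and 14 lower, where 32.2% of all features were called. The split was 0 higher and 56 lower with RLE factors or DESeq2, 0 and 60 with total counts, and 10 and 7 against the summed Snord reads. The members at the top were the U14 copies of Hspa8, which act in 18S rRNA processing and also guide its methylation. Snord14d rose by 2.06 ± 0.29, Snord14c by 1.9995 ± 0.26 and Snord14e by 1.46 ± 0.31. Under total counts the values of Snord14d and Snord14c were -0.21 and -0.28, and that of Snord4a, an 18S guide at 1.66 ± 0.29, was -0.51. With the summed Snord reads as library size, Snord14d was higher by 2.29 (edgeR adjusted p 2.42e-12), Snord14c by 2.24 (1.57e-14) and Snord4a by 1.95 (1.44e-06). Snord14d made up a median of 2.90% of the Snord reads of heart libraries, 0.848% in testis, 0.393% in caput, 0.315% in liver, 0.270% in sperm and 0.259% in cauda, over all diets. On the control diet its heart median was 0.465%, beside 0.432% in testis, 0.417% in caput and 0.406% in liver. The heart medians on the other diets were 1.32% on low protein, 4.10% on the high-fat control and 3.49% on high fat. With only the control and high-fat control diets in the fit, Snord14d was higher in heart by 1.10 (edgeR adjusted p 0.0131) and Snord14c by 1.08 (0.0057). Snord14a, a U14 copy from another host (Rps13), was not called in heart. Lowest in heart were Snord118 (fell by 2.40 ± 0.41), Snord15a (fell by 1.83 ± 0.45) and Snord17 (fell by 1.78 ± 0.38).

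In liver 10 members were higher and 8 lower, where 29.6% of all features were called. Snord45b, an 18S guide in Rabggtb, was highest at 2.52 ± 0.32, followed by Snord96a, a guide of 5.8S rRNA, at 1.92 ± 0.27 and Snord4a at 1.85 ± 0.32. Snord88a fell by 2.29 ± 0.45, Snord17 by 1.95 ± 0.42 and Snord88c by 1.92 ± 0.49. Snord88a and Snord88c read 0 RPM in the median liver library and 212 and 247 in the median testis library. Liver split into 8 higher and 10 lower with RLE factors, 7 and 10 with total counts, 4 and 11 against the summed Snord reads, with these 6 members on the same side, and into 22 and 6 without the 3 libraries under 5000 reads. In caput 9 were higher and 9 lower, where 47.4% of all features were called, 4.35% higher and 43% lower. Snord90, which has no settled target, rose by 2.07 ± 0.32, Snord1a by 1.97 ± 0.33 and Snord4a by 1.93 ± 0.32. Snord90 had a median of 209 RPM in caput and of 0 to 50.4 in the other tissues. Snord15b fell by 2.46 ± 0.46, Snord13 by 1.75 ± 0.41 and Snord22 by 1.70 ± 0.54. The caput split was 30 and 1 with total counts, 16 and 4 with RLE factors, 26 and 2 without the libraries under 5000 reads, and 8 and 12 against the summed Snord reads.

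**Figure D2:**
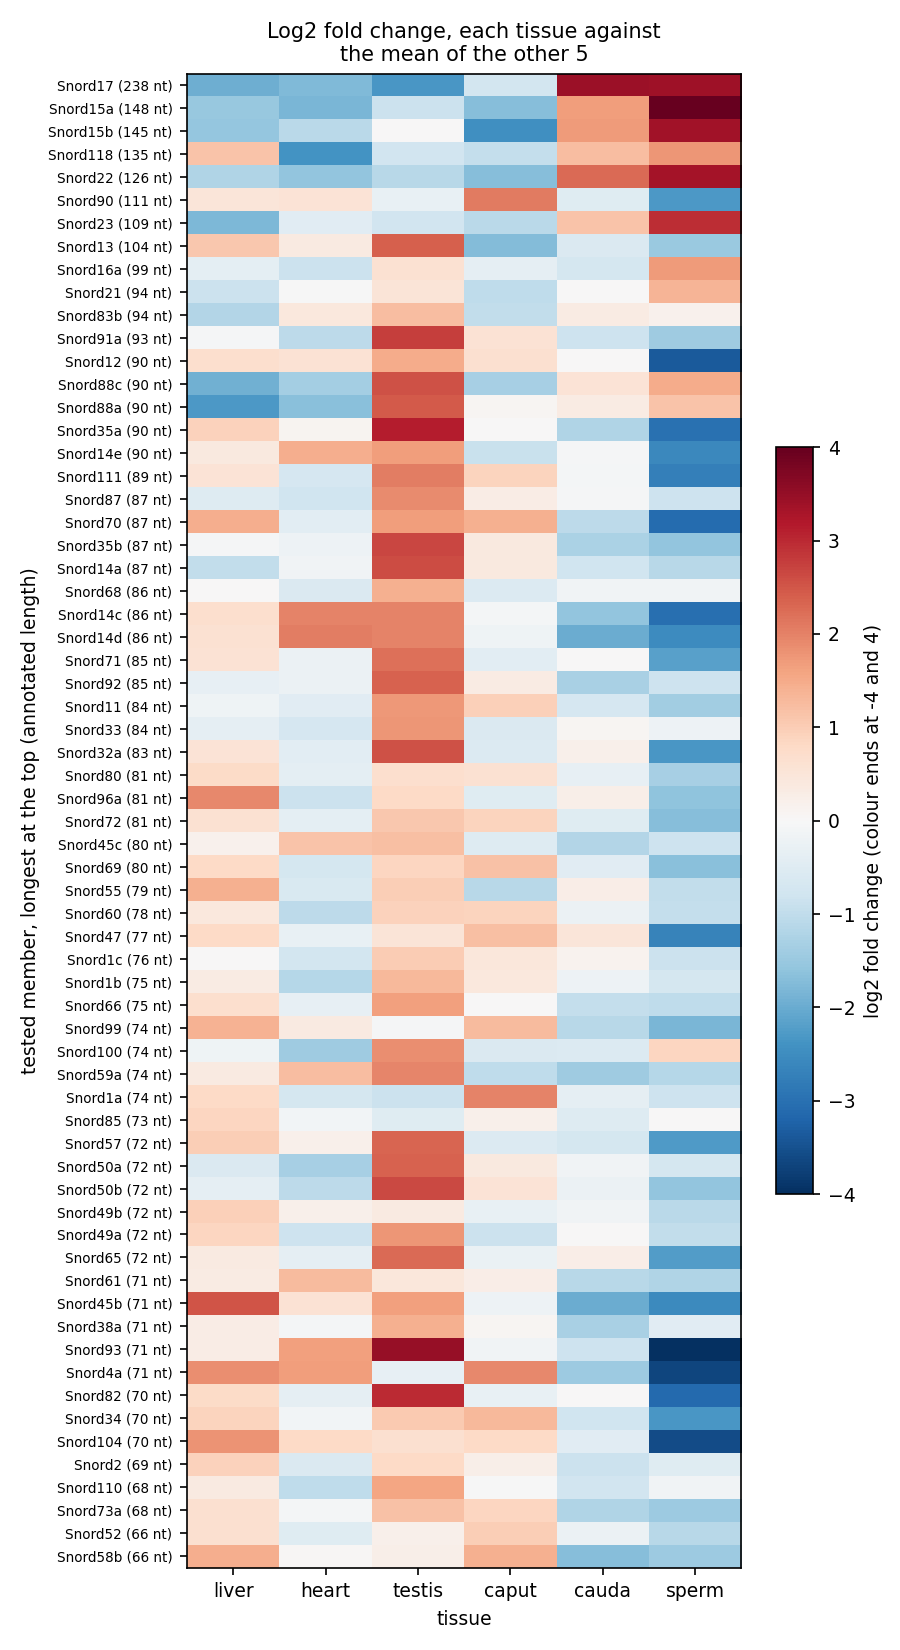
Log2 fold change of each of the 65 tested members in each tissue relative to the mean of the 5 others, with members in order of annotated length and the longest at the top; red is higher and blue lower. The longest members are red in cauda and sperm, and most shorter ones are red in testis and blue in sperm.

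In the cauda epididymis 6 of the 65 tested members were called higher, Snord17, Snord22, Snord15b, Snord15a, Snord118 and Snord23, and 15 lower, where 44.3% of all features were called. The 6 are longer than 100 nt and the 15 are shorter, a limit set after seeing the data. Snord17, a 28S guide, had 117 RPM in the lowest cauda library, 503 in the median and 1438 in the highest of 18. Its medians were 32.4 RPM in caput, 17.3 in testis, 7.31 in liver and 2.90 in heart, and no liver, heart or testis library exceeded 120 RPM. Its log2 fold change was 3.43 ± 0.26. Snord22, which acts in 18S processing, rose by 2.27 ± 0.31 and Snord15b by 1.71 ± 0.27. Snord45b fell by 1.99 ± 0.48, Snord14d by 1.98 ± 0.41 and Snord58b by 1.69 ± 0.36. The cauda split was 4 higher and 23 lower with RLE factors and 6 and 9 with total counts. With the summed Snord reads as library size it was 7 and 4, with Snord17 at 3.90, Snord22 at 2.77 and Snord15b at 2.22.

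In sperm taken from the cauda the same 6 long members were called higher. In all 10 members were higher and 37 lower than the mean of the other tissues, where 61.5% of all features were called and 39.8% were called higher. Snord15a, a 28S guide, had 155 reads in 17 of 19 sperm libraries with a median of 175 RPM and a highest value of 467. It had 8 reads in all of liver and 8 in all of heart, and its median was 44.4 RPM in cauda. Its log2 fold change was 4.23 ± 0.28, with Snord17 at 3.38 ± 0.27, Snord15b at 3.37 ± 0.25, Snord22 at 3.32 ± 0.30 and Snord23 at 2.96 ± 0.29. Relative to the summed Snord reads the values were 5.40 for Snord15a, 4.58 for Snord17 and 4.53 for Snord15b, with a split of 13 and 18. RLE factors gave 15 and 19. The 3 lowest called members in sperm were Snord93, Snord4a and Snord104, at -4.37, -3.32 and -2.43 against the summed Snord reads. The members longer than 100 nt together made up a median of 9.64% of the Snord reads of sperm libraries (6.13% to 13.5%) and 4.58% in cauda (1.87% to 7.49%). In liver, heart, testis and caput the medians lay between 0.831% and 1.18%, and no sperm library overlapped them, the highest of these 4 tissues being 3.22%. Whether the cauda tissue libraries also held RNA of sperm was not tested, so the calls in cauda and in sperm may not be independent.

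Of the 8 tested members longer than 100 nt, 6 rose in sperm and 2 fell. Snord90 (111 nt) fell in sperm, with 10 reads in 19 libraries, as did Snord13 (104 nt), the U13 RNA. The 3 others longer than 100 nt had too few reads to test: Snord67 with 213, Snord89 with 119 and Snord8 with 89. A member with few reads can pass the count filter through the tissue where it is high, so the counts by length describe the tested members only. The long members held few reads, 1627 for Snord17, 586 for Snord15b, 389 for Snord22 and 283 for Snord15a over 111 libraries. Their values in liver, heart and caput rest on few reads. Column names of the count table end in gt65, which may mark a limit on read length. Its part in the differences by length was not tested.

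The 2 direct comparisons along the male tract used the same fit and libraries as the comparisons above, so they are not independent of them. For cauda against caput, 9 members were higher and 23 lower, where 62.6% of all features were called and 50.4% were called higher. Snord17 rose by 3.48 ± 0.44, Snord15b by 3.47 ± 0.49 and Snord22 by 3.30 ± 0.56. Snord4a fell by 2.81 ± 0.47, Snord58b by 2.59 ± 0.43 and Snord90 by 2.14 ± 0.46. The split was 6 and 36 with RLE factors and 17 and 8 against the summed Snord reads. For sperm against testis 6 were higher and 52 lower, where 76.7% of all features were called and 50.2% were called lower. The 6 were Snord17 (4.76 ± 0.43), Snord15a (4.24 ± 0.39), Snord22 (3.69 ± 0.44), Snord23, Snord15b and Snord118. Of the 52, Snord35a fell by 5.09 ± 0.43 and Snord82 by 5.07 ± 0.46. Snord93 had 0 reads in all 19 sperm libraries (783802 reads). With the floor set at 3 reads over the sperm libraries, it was at least 39.9-fold lower than in testis, where pooled reads gave 153 RPM. Against the summed Snord reads the split was 12 and 21.

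**Figure D3:**
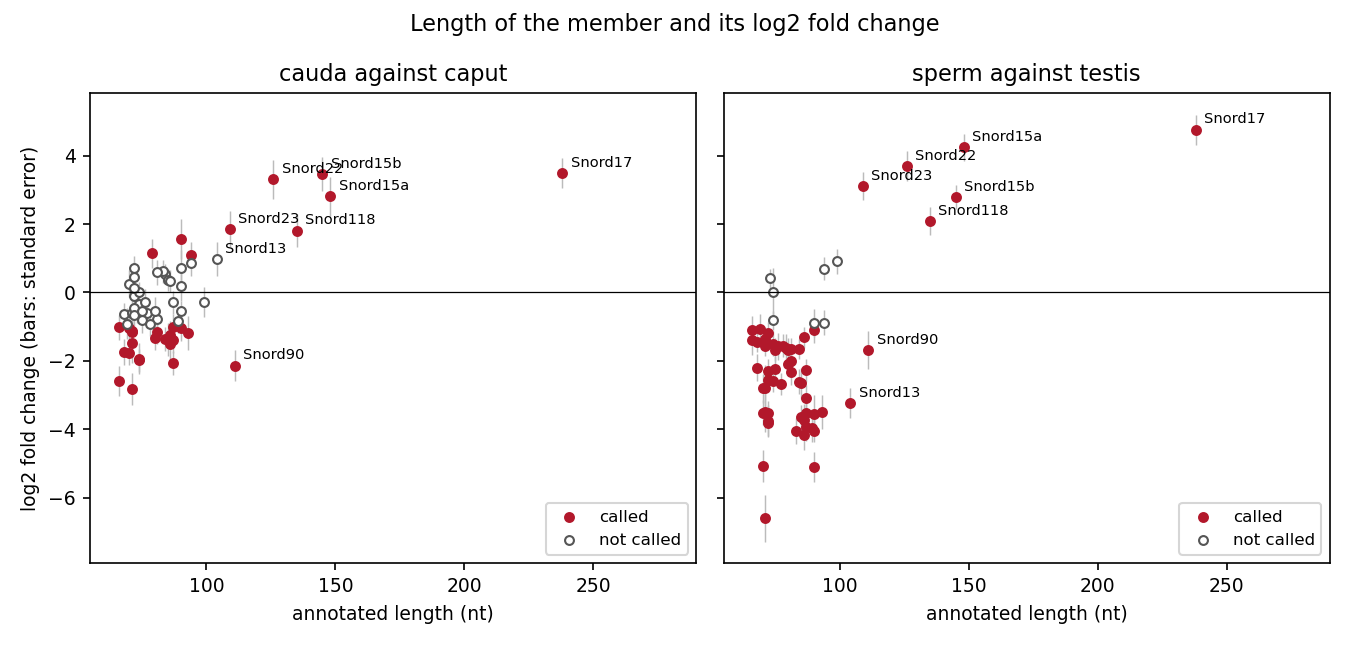
Annotated length of the 65 tested members against the log2 fold change (bars are standard errors) for cauda against caput and sperm against testis; filled points were called. Snord17, Snord15a, Snord15b, Snord22, Snord118 and Snord23 lie above 0 in both panels, and Snord90 lies below 0 in both.

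For sperm against the cauda epididymis it was taken from, 6 members were higher and 22 lower, where 43.9% of all features were called. This split turned to 23 and 4 with RLE factors and to 24 and 5 with DESeq2, and it was 12 and 12 against the summed Snord reads. Snord15a was higher by 2.13 ± 0.37, Snord16a, an 18S guide, by 2.004 ± 0.41, and Snord23 by 1.51 ± 0.41, and against the summed Snord reads by 2.71, 2.53 and 2.08. Snord12, a 28S guide in Zfas1, fell by 2.81 ± 0.33 and Snord47, a 28S guide in Gas5, by 2.63 ± 0.33. Relative to the family they fell by 2.36 and 2.23. Snord12 had a median of 848 RPM in cauda (318 to 1551) and 90.5 in sperm (0 to 561). Snord93 was at least 1.89-fold lower in sperm by the same floor, from 15 reads in cauda, and its fitted value was 0.21 with DESeq2.

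Grouped by target, the counts of 18S and 28S guides were as follows. In testis 18 of 21 tested 18S guides and 16 of 31 tested 28S guides were higher, where 47.6% of all features were, and 1 of the 28S guides (Snord17) was lower. In heart 8 of the 21 18S guides were higher and 2 lower, against 0 higher and 9 lower of the 31 28S guides, where 13.5% of all features were higher and 18.7% lower. With RLE factors, total counts or DESeq2 no member, and so no 18S guide, was called higher in heart. The medians of the log2 fold changes in heart were -0.13 and -0.58, beside -0.67 over all features. In sperm 1 of the 21 18S guides was higher and 16 lower, and 6 of the 31 28S guides were higher and 17 lower, where 39.8% of all features were higher and 21.7% lower. Of the 7 processing members (U14 copies, Snord13, Snord22 and Snord118), 5 were higher in testis and 1 lower, whereas in sperm 2 were higher (Snord22 and Snord118) and 5 lower. The 4 snoRNAs of Rpl13a (Snord32a, Snord33, Snord34 and Snord35a) were all higher in testis, with a median of 2.15. The 2 snoRNAs of Gas5, Snord80 and Snord47, were not called in testis. Snord32a and the U14 copies are on more than 1 list. The differences between lists were not tested.

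The low-protein diet was compared with its control in each tissue, and a member was called at an adjusted p under 0.05. In heart 24 of 44 tested members were higher and 0 lower, where 75.2% of all features were called, 33.5% higher and 41.7% lower. The members' median log2 fold change was 1.18, beside -0.29 over all features. The counts were 25 and 0 with RLE factors, 24 and 0 with total counts and 26 and 0 with DESeq2. They were 9 higher and 14 lower when all 1268 entries entered the fit. Against the summed Snord reads, a scaling that fixes the family's sum, 6 were higher and 14 lower. The 2 groups also differed in depth and composition. Control hearts had a median of 1101120 kept reads and 76.5% mitochondrial tRNA, low-protein hearts 176730 and 60.2%. The Snord share was 0.215% to 0.438% in the 5 control hearts and 0.493% to 1.55% in the 5 low-protein hearts, without overlap. The hearts of the other diets also lay above all control hearts, with lowest values of 0.524% on the high-fat control and 0.495% on high fat. By share the control hearts were thus the low group, and the gap was not particular to the low-protein diet. The column names number the control hearts S5 to S9 and the low-protein hearts S35 to S39. Hearts of the other diets carry no such number. What the numbers stand for is not stated in the sources used here. The part of depth, composition and whatever these numbers mark in this difference was not tested.

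The members with the largest change stayed above 0 relative to the family, each at a lower value. They were picked for the size of their change, so the kept sign adds no support. Snord14d read 6.61, 18.2, 9.99, 12.2 and 27.3 RPM in control hearts and 50.9, 101, 0, 530 and 215 in low-protein hearts. Apart from the low-protein library at 0, which held 144 Snord reads in all, every low-protein value lay above the control values. Its log2 fold change was 3.36 ± 0.51 (edgeR adjusted p 2.09e-10) and 2.15 against the summed Snord reads (2.82e-04). Snord45c, an 18S guide in Rabggtb, read 7.93, 11.9, 5.45, 8.16 and 12.9 RPM in control and 170, 63.9, 68.5, 177 and 27.7 in low-protein hearts. The groups did not overlap, and it rose by 3.18 ± 0.50, or by 2.07 relative to the family. Snord57, an 18S guide, read 43.6, 45.9, 27.3, 36.7 and 30.0 RPM in control and 492, 426, 68.5, 613 and 72.3 in low-protein hearts, again without overlap. It rose by 3.10 ± 0.48, or by 1.90 relative to the family. Snord55, a 28S guide, read 23.8, 34.1, 17.3, 19.04 and 24.5 RPM in control and 67.9, 139, 308, 325 and 87.2 in low-protein hearts, and rose by 2.52 ± 0.45, or by 1.48 relative to the family. The low-protein values of 68.5 RPM for Snord45c and Snord57 and of 308 RPM for Snord55 come from the library with 144 Snord reads. That library held 29210 kept reads, so the lack of overlap rests on few reads there. Snord13 rose by 2.19 ± 0.51 and Snord14c by 2.17 ± 0.48. Relative to the family Snord13 was called at 1.07, and Snord14c was not, at 0.98 (adjusted p 0.0566).

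The hearts of the 2 other diets showed that these members did not share 1 pattern. Snord14d read 203 to 442 RPM in the 5 high-fat control hearts and 181 to 481 in the 4 high-fat hearts, all above the 5 control hearts. Its share of Snord reads was 0.151% to 0.965% in control hearts and 2.85% to 8.37% in the high-fat and high-fat control hearts. Here the control hearts were the low group. For Snord55 the low-protein hearts were the high group: the 14 other hearts read 0 to 50.8 RPM, below the lowest low-protein heart. As a share of Snord reads Snord55 was 1.09% to 6.25% in low-protein hearts, 0.543% to 0.904% in control, 0 to 0.591% in high-fat control and 0.228% to 0.483% in high-fat hearts. These values are descriptions without a test. Snord100, Snord68, Snord59a and Snord33 were among the 20 tested members that were not called, with log2 fold changes of -0.41, -0.26, 0.01 and -0.08.

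**Figure D4:**
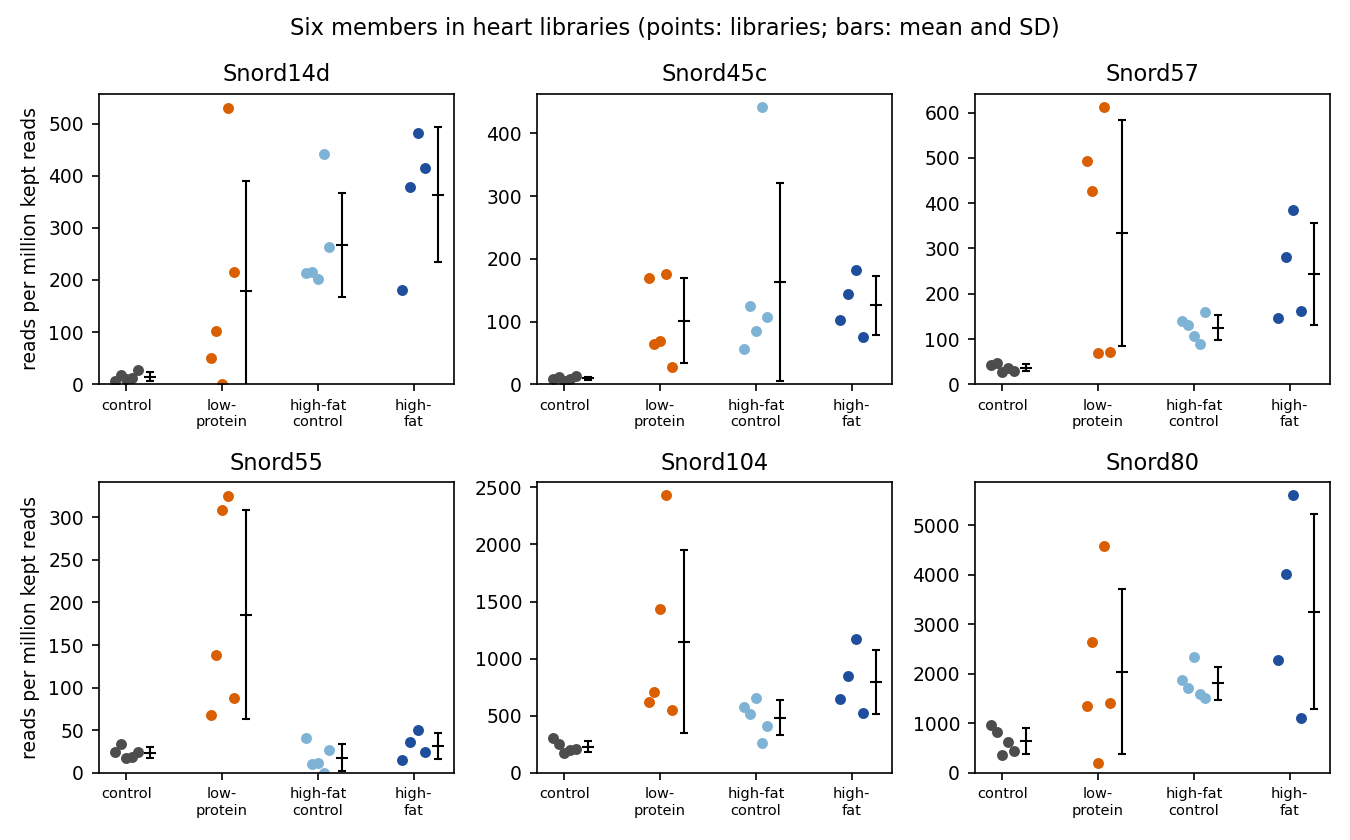
RPM of 6 members in every heart library by diet; points are libraries, bars the mean and SD. Snord14d is low in the 5 control hearts (6.61 to 27.3) and Snord55 is high in the 5 low-protein hearts (67.9 to 325).

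By role, the 5 tested processing members (U14 copies and Snord13) were all called higher in low-protein hearts, with a median of 2.17, where 33.5% of all features were called higher and 75.2% called. Of these Snord14c was not called against the summed Snord reads (adjusted p 0.0566). Of the tested guides, 10 of 17 for 18S and 12 of 21 for 28S were higher, with medians of 1.49 and 1.17. Of the 4 Rpl13a members 3 were higher, all but Snord33. Of the 2 Gas5 members Snord80 rose by 1.55 ± 0.51 and Snord47 had a log2 fold change of -0.20.

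In caput 12 members were lower and 1 higher on the low-protein diet, of 36 tested, where 41.4% of all features were called and 26.9% were called lower. The 5 low-protein libraries were shallow, 912 to 16203 kept reads against 13726 to 85848 in control, with 19 to 1213 Snord reads each. Mitochondrial tRNA took 35.2% to 52.4% of reads in control and 15.0% to 33.7% in low-protein libraries, and its part in the result was not tested. Snord69, a 28S guide, had 84, 13, 90, 47 and 48 reads in control libraries (978, 947, 1216, 717 and 1178 RPM) and 0, 0, 1, 4 and 2 reads in low-protein libraries. The single read in the shallowest library made 1096 RPM, so the RPM ranges overlap there and not elsewhere. It fell by 2.61 ± 0.57 (edgeR adjusted p 2.19e-04). Snord111, a 28S guide, had 66, 22, 112, 70 and 61 reads in control and 0, 0, 0, 8 and 5 in low-protein libraries, and fell by 2.16 ± 0.50. Snord96a fell by 2.47 ± 0.57, Snord1b by 2.56 ± 0.66, Snord58b by 2.78 ± 0.91 and Snord90 by 2.30 ± 0.75. Total counts gave 9 lower and 4 higher. Against the summed Snord reads 14 were lower and 2 higher, with Snord69 at -2.84 and Snord111 at -2.42. Snord80 made up 24.8% to 28.1% of the Snord reads in control and 31.5% to 62.2% in low-protein libraries. The part of Snord80 in these values was not tested. Not all members fell: Snord57 rose by 1.401 ± 0.46, and Snord104 read 1771 to 4080 RPM in control and 2193 to 9381 in low-protein libraries, with a log2 fold change of 0.87 (adjusted p 0.0933). Without the libraries under 5000 reads 8 were lower and 2 higher. Leaving out control library 1 or control library 5 gave 4 lower and 5 higher, leaving out control library 3 gave 6 and 3, and leaving out control library 2 gave 7 and 1. With only these 2 diets in the fit 4 were lower and 1 higher.

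In liver 3 members were higher and 0 lower on the low-protein diet, of 47 tested, where 35.6% of all features were called and 9.76% were called higher. Mitochondrial tRNA took 21.7% to 28.6% of reads in control livers and 52.5% to 78.0% in low-protein livers, without overlap, and its part in the result was not tested. Column names number the control livers S1 to S4 and the low-protein livers S48 to S52, and the part of what this marks was not tested. Snord61, an 18S guide in Rbmx, read 130, 72.5, 70.2 and 54.4 RPM in the 4 control livers and 360, 417, 133, 137 and 212 in the 5 low-protein livers, which lay above all control values. It rose by 1.85 ± 0.63 (edgeR adjusted p 0.0228), and was not called against the summed Snord reads (adjusted p 0.0936). Snord58b rose by 2.21 ± 0.70 and Snord90 by 2.41 ± 0.92, both with overlapping groups (24.2 to 104 and 43.1 to 400 RPM for Snord58b, 0 to 23.5 and 0 to 146 RPM for Snord90). Leaving out a single library gave 0 to 6 calls, with 0 without control library 3, 1 without control library 2, 5 without control library 1 and 6 without low-protein library 4. Of the low-protein comparisons, 0 of 60 tested members were called in testis (0% of all features), 0 of 34 in cauda (0%) and 0 of 21 in sperm (0%) with edgeR. At an unadjusted p under 0.05 there were 0, 6 and 0 members, and DESeq2 called 0, 1 and 0.

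The high-fat diet was compared with its own control. In liver 1 of 47 members was called, where 2.93% of all features were called and 2.44% were called higher. Snord66, an 18S guide in Eif4g1, read 181, 66.6, 0 and 111 RPM in control livers, from 4, 1, 0 and 1 reads, and 106, 62.1, 1209 and 1614 in high-fat livers, from 29, 17, 1 and 83 reads. The groups overlapped, and the value of 1209 RPM is 1 read in the library of 827 reads. It rose by 3.98 ± 1.01 (edgeR adjusted p 0.0462). Libraries of equal title number all passed the correlation rule used for pairs here (lowest 0.104, median 0.134). The labels do not state such pairs, and the correlations do not show them. With the replicate number as a block the count was 0. Leaving out a library gave 0 to 8 calls: 0 without any 1 of the 4 control libraries or without high-fat library 4, 5 without high-fat library 1, 8 without 2 and 6 without 3. DESeq2 called 4. In heart 0 of 44 members were called (1.24% of all features), in testis 0 of 60 (0%), in caput 0 of 36 (0.69%), in cauda 0 of 34 (0%) and in sperm 0 of 21 (0%) with edgeR. At an unadjusted p under 0.05 there were 1, 2, 6, 2 and 0 members, and DESeq2 called 0 in each. The members' log2 fold changes ran from -0.65 to 1.09 in heart with a median standard error of 0.49, and from -0.54 to 1.52 in sperm with one of 0.72.

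**Figure D5:**
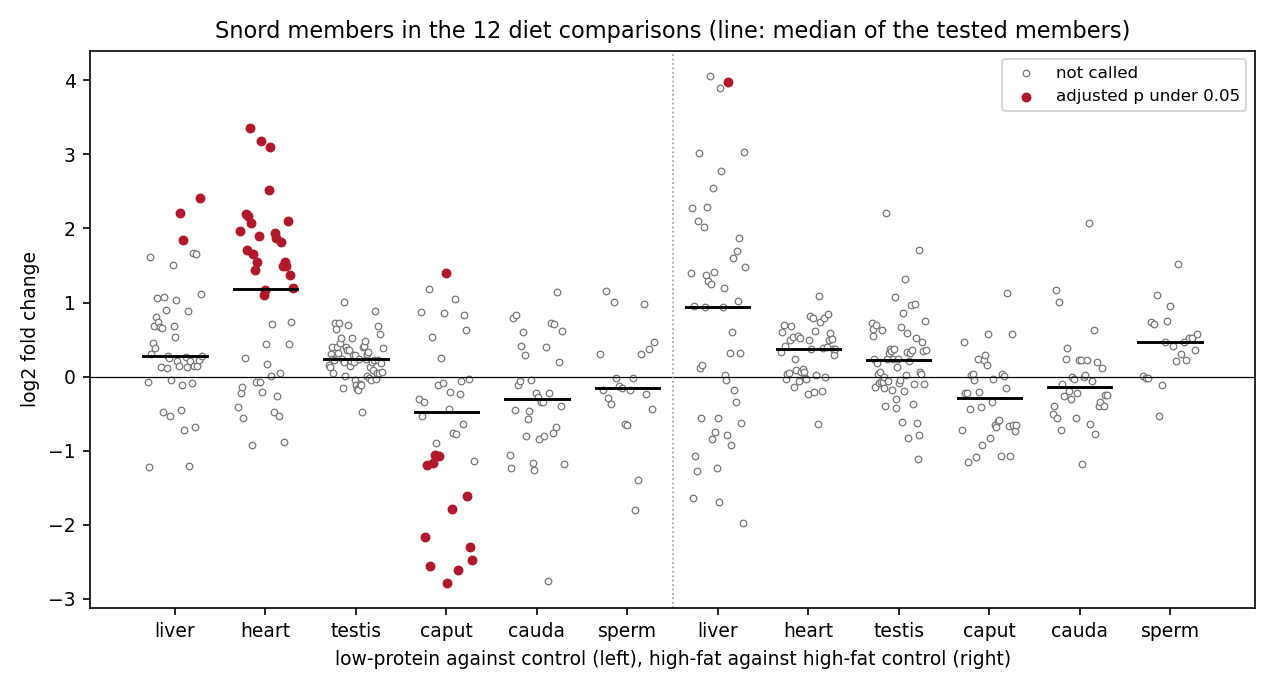
Log2 fold changes of the tested members in the 12 diet comparisons; filled points have an adjusted p under 0.05 and lines mark the members' median. In low-protein heart 24 members are called, all above 0, in low-protein caput 12 of the 13 called members lie below 0, and 8 comparisons have no call.

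Whether the diet effect differed between tissues was tested directly with interaction terms. For the low-protein diet 13 of 64 members were called, where 35.9% of all features were called. The 6 with the lowest p were Snord104 (adjusted p 0.000384), Snord55 (0.00153), Snord66 (0.00162), Snord57 (0.00185), Snord17 (0.00382) and Snord73a (0.00451). Snord104 had log2 fold changes of 1.97 ± 0.49 in heart and 0.87 ± 0.43 in caput, against -1.22 ± 0.69 in liver and -1.23 ± 0.49 in cauda. Snord66 had 1.88 ± 0.46 in heart and -2.76 ± 0.67 in cauda. Snord57 had 3.10 in heart, 1.401 in caput and -0.11 in testis. Snord69 and Snord111, which fell in caput, were also called. Snord69 had 0.34 in testis, 0.72 in cauda, 0.89 in liver and -0.53 ± 0.49 in heart. Snord111 had 0.24 in testis, 0.83 in cauda, 0.45 in liver and -0.55 ± 0.51 in heart. The named 6 were called against the summed Snord reads too, with adjusted p of 0.00151 for Snord73a, 0.00224 for Snord104, 0.00273 for Snord17, 0.00752 for Snord66, 0.0132 for Snord55 and 0.0159 for Snord57. For the high-fat diet 2 of 60 members were called, where 3.17% of all features were called, Snord13 (adjusted p 0.0445) and Snord55 (0.0497). Neither was called against the summed Snord reads, with adjusted p of 0.20 and 0.383. On the high-fat diet Snord13 was tested on its own only in heart (0.047 ± 0.51) and testis (0.040 ± 0.53), where the values were alike.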

How the data were processed

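Per the labels' protocols, RNA was kinase-treated, copied by OTTR-seq, size-selected on gels and amplified by PCR. The authors deposited 1 table of raw read counts per annotated small RNA for all 111 libraries. Its column names end in gt65, which may mark a limit on read length and was not checked. The submitters' processing notes name cutadapt, DESeq2 and the mm10 build. The aligner, the use of strand and the assignment of reads that match several genes are among the steps not given in the sources used here. Reads from a member and an antisense or near-identical gene therefore cannot be told apart.

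By name, 22 second names of mitochondrial tRNAs and 55 5S rRNA entries, all but the one with most reads, were removed without comparing their reads. A further 149 entries were removed because their reads per library differed from those of another entry by under 5%. This kept 51.1% of the reads of the table and 1042 features. Of entries with the same reads as a Snord member, the Snord name was kept. Levels are RPM, reads per 1000000 kept reads. Tests used edgeR 4.0.16 in R 4.3.3 (TMM factors, filterByExpr, robust quasi-likelihood F test, Benjamini-Hochberg adjustment over all features tested), fitted over all tissues with diet as a term for tissues, within each tissue over its 4 diets for diets, and over all tissues for interactions. Standard errors are those implied by the F statistic. The fits were run on simulated data for cauda against caput and for low-protein heart only. Those data had a common profile with changes balanced in sign, so they cannot test the differences between scalings. Alternatives were RLE factors, total counts, no low-count filter (features with at least 50 reads), all entries, no libraries under 5000 reads, DESeq2 1.42.0, control diets only, only the 2 diets compared, a replicate block and leaving out libraries. Scaling to the summed Snord reads was added after seeing the data.

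The text names the 3 highest and 3 lowest called members per tissue comparison, up to 6 called members per diet comparison by size of change, the 10 members with most reads, up to 6 interaction members by p, and members at 0 reads; others named were chosen after their values were seen. The members, the lists of targets and hosts (from general knowledge of snoRNAs) and the tests were chosen with earlier results of these data known. The lists of U6 guides (Snord8 and Snord67) and of imprinted clusters had 0 tested members, and that of Snhg1 held Snord22 only. Whether equal title numbers pair libraries was checked by the correlation of deviations from group means: in liver, high-fat against its control, all 4 pairs exceeded 0.1 (lowest 0.104), and in the 11 other diet comparisons at least 1 pair did not.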

Additional observations from a re-analysis of the deposited data

Results flagged for a closer look

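The share of reads in the Snord entries was 1.55% in low-protein heart library 4 and 0.493% to 0.769% in the 4 other low-protein hearts, a gap that stood out by Dixon's test. It was the 1 gap of this kind in 24 groups tested, and chance gives one in about 5% of groups. Without that library 25 members were called higher and 0 lower in low-protein hearts.

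The low-protein effect differed among tissues, by an interaction test in edgeR, for Snord104 (adjusted p 0.000384), Snord55 (0.00153), Snord66 (0.00162), Snord57 (0.00185), Snord17 (0.00382) and Snord73a (0.00451), and the high-fat effect for Snord13 (0.0445) and Snord55 (0.0497). In low-protein caput Snord73a had 0 reads in 4 of 5 libraries and 1 read in the other, against 26, 3, 26, 16 and 24 reads in control. Its low-protein log2 fold change was 1.67 ± 0.74 in liver, -0.89 ± 0.57 in heart and 0.20 ± 0.41 in testis. Snord17 was tested on its own only in cauda (0.42 ± 0.45) and sperm (-0.37 ± 0.71). For the high-fat diet Snord13 was tested on its own only in heart (0.047 ± 0.51) and testis (0.040 ± 0.53). These 2 values were alike, so no tissue tested on its own shows the difference. Snord55 had a high-fat log2 fold change of 3.89 ± 1.11 in liver and -1.18 ± 0.43 in cauda, and neither was called within its tissue.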

How the results depend on the processing

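The counts of called Snord members below differ from those reported by over 1.5 times, and the cause was not tested. Against the summed Snord reads, an alternative chosen after seeing the data, 24 were called in testis, 11 in cauda, 31 in sperm, 33 for sperm against testis, 0 for high-fat liver and 1 for the high-fat interaction. With RLE factors 56 were called in heart (all lower), 1 for low-protein cauda, 0 for high-fat liver, 26 for the low-protein and 0 for the high-fat interaction. Total counts gave 60 in heart (all lower), 31 in caput, 1 for low-protein liver, 1 for low-protein cauda, 0 for high-fat liver and 4 for the high-fat interaction. DESeq2 gave 56 in heart, 1 for low-protein cauda and 4 for high-fat liver. With all entries the counts were 33 in caput (32 higher), 34 in cauda (33 lower), 34 in liver (29 higher), 52 for cauda against caput (50 lower), 1 for high-fat cauda, 0 for high-fat liver and 30 for the low-protein interaction. Without the low-count filter they were 28 in caput, 33 in cauda, 51 for cauda against caput, 7 for low-protein liver, 3 for high-fat liver, and 1 each for low-protein and high-fat cauda. The control and high-fat control diets alone gave 34 in heart (31 lower) and 15 for sperm against cauda. Fits of only the 2 diets gave 6 for low-protein liver, 0 for high-fat liver, 5 for low-protein caput and 2 for low-protein cauda. Without libraries under 5000 reads there were 28 in caput, 28 in liver, 5 for low-protein liver, 6 for high-fat liver and 24 for the low-protein interaction. For sperm against all other tissues DESeq2 split into 15 higher and 18 lower and all entries into 3 and 55. For sperm against cauda all entries split into 3 and 29.

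With the replicate number as a block, 1 member was called for low-protein liver, 0 for high-fat liver, 1 for low-protein cauda and 0 for the high-fat interaction, and the other counts stayed within 1.5 times. Only in high-fat liver did all libraries of equal number pass the correlation rule used, and the labels do not state pairs there.

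Leaving out each replicate in turn gave 14 to 25 calls in liver, 20 to 25 in heart, 42 to 46 in testis, 17 to 22 in caput, 21 to 27 in cauda, 45 to 53 in sperm, 28 to 44 for cauda against caput, 58 to 61 for sperm against testis and 19 to 25 for sperm against cauda. By diet it gave 0 to 6 for low-protein and 0 to 8 for high-fat liver, 20 to 29 for low-protein heart, and 8 to 14 for low-protein caput. It gave 0 to 3 for high-fat caput (2 without high-fat control library 4, 1 without 5, 3 without high-fat library 1), 0 to 1 for low-protein cauda (1 without control library 1 or 3) and 0 to 1 for high-fat cauda (1 without high-fat control library 2 or high-fat library 4). The other diet comparisons stayed at 0. Splits moved more than counts in caput, with 19 higher and 3 lower without replicate 2, 20 and 2 without 3, and 17 and 2 without 5, and in liver, with 20 and 5 without replicate 2.

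Values that changed sign were Snord14d (-0.21), Snord14c (-0.28) and Snord4a (-0.51) in heart under total counts, and, with DESeq2, Snord4a in heart (-0.035) and Snord93 for sperm against cauda (0.21). In testis, Snord22 missed the fold threshold without replicate 1 (-0.88), 2 (-0.95), 4 (-0.92) or 5 (-0.96).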
